A study of Mus musculus with 16 samples.

Results

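Cells of the stroma that carried a program of smooth-muscle-type actin genes were examined in bone marrow stromal cell cultures of 4 genotypes. A cell was counted as contractile when it had at least 500 genes and under 20% mitochondrial UMIs (unique molecular identifiers, the counted transcript copies), when Col1a1, Col1a2, Sparc, Tagln and Tpm2 together reached 25 per 10000 UMIs, when Ibsp, Bglap and Bglap2 stayed under 60, and when the sum of Tagln, Acta2, Tpm2 and Myl9 exceeded that of Cxcl12, Col3a1, Pappa, Ebf1 and Postn. This rule found 530 contractile stromal cells among 17793 cells, of which 15847 passed the filter on genes and mitochondrial UMIs and 1471 were stromal. The other stromal cells were 568 cells with the reverse balance, called fibroblastic here, and 373 osteoblast-like cells above the limit for Ibsp, Bglap and Bglap2. The remaining 14376 cells were non-stromal and, in their median, held 383 UMIs of 12 macrophage markers per 10000.

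All mice carried Fgf23fl/fl alleles, and marrow came from 12-week-old male C57BL/6J littermates. The WT mice were Dmp1+/+ Fgf23fl/fl without Dmp1-cre, the Fgf23cKO mice were Dmp1+/+ Fgf23fl/fl with Dmp1-cre, the Dmp1KO mice were Dmp1-/- Fgf23fl/fl without cre, and the Dmp1KO/Fgf23cKO mice were Dmp1-/- Fgf23fl/fl with Dmp1-cre. The Dmp1 promoter that drives the Cre is active in mature osteoblasts and osteocytes, so the Fgf23 allele of a contractile cell need not have been recombined. Cells were grown for 21 days with 10 mM beta-glycerophosphate in osteogenic medium, sorted as live and measured by droplet sequencing of transcript 3′ ends, with 1 reaction per genotype, and the effects of genotype and of reaction therefore cannot be told apart. The cultures numbered 1 to 3 were told apart by oligonucleotide tags, and the samples numbered 4 were read as untagged cells of the same pools. The first Dmp1KO culture was not used here, which left 11 tagged cultures with 291 contractile cells and 4 untagged samples with 239. Of 19728 barcodes listed for the 16 samples, 44 pairs were shared between samples, none of them within a genotype, and 4 involved a contractile cell.

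Contractile stromal cells resemble myofibroblasts, cells that build stress fibers from smooth muscle actin, tropomyosin and myosin light chains and pull on the matrix around them. Their genes are known targets of serum response factor with its myocardin-family coactivators, which bind the CArG box, and of the YAP and TEAD factors, which bind a CATTCC-type motif. In marrow cultures such cells grow out beside osteoprogenitors, adipocyte precursors and macrophages.

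To show what the sequence around the start of contractile genes holds, 3 of them from the rule (Acta2, Tpm2 and Myl9) and Cald1 and Cnn1 from outside it, the windows from 250 bases before to 50 after the start were read from the RefSeq promoters of GRCm38.p6 on the strand of the gene, and the following pair is printed because it held a motif match. The capitals mark a CATTCC match, read as GGAATG on this strand, in Acta2 (smooth muscle alpha actin, chr19:34255324-34255623, minus strand) and a CArG box in Myl9 (a regulatory myosin light chain, chr2:156775214-156775513, plus strand).
Acta2: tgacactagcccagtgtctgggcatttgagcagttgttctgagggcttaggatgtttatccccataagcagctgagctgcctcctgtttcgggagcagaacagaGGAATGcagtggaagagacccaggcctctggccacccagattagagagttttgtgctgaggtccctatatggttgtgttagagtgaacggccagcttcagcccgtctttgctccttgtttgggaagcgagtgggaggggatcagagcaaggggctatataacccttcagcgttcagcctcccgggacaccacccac
Myl9: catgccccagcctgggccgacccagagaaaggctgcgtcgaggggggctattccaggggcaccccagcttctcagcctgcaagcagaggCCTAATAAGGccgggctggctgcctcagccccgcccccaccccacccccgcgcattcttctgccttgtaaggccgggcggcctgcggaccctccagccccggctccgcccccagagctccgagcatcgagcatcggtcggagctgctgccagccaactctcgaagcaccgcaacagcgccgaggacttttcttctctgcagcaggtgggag
The CArG box of Myl9 began at position -161 from the start, and 535 of 32851 promoters of this length (1.63%) held one on either strand. The CATTCC match of Acta2 began at position -146, 1 of the 2 promoters of Cald1 held one at position -153, and 14.7% of promoters did. TATAAA lay in the other Cald1 promoter and in 13.6% of promoters. The windows of Tpm2 and Cnn1 held none of the 3 motifs in these exact forms. A CArG box was counted only where every letter between CC and GG was A or T, as in Myl9. Near matches, such as ccctatatgg and ccttgtttgg in Acta2, were neither counted nor marked, so the search does not show that Acta2 lacks a CArG box. These matches describe letters and not binding.

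By the rule's own genes, which are given as a description, the summed UMIs of the contractile cells in a culture held between 1845 and 9859 copies of Acta2 per 1000000 UMIs (CPM), with a median of 3291, against a median of 581 in the fibroblastic cells and 11.6 in the non-stromal cells. For Tagln (transgelin, which binds actin filaments) the lowest, median and highest levels were 1142, 3149 and 6247 CPM, and the fibroblastic median was 358. The 6 markers of the class, which add Grem1 and Cald1 to the rule's Tagln, Acta2, Tpm2 and Myl9, summed to a median of 11928 CPM in contractile cells, 2651 in fibroblastic cells and 37.8 in non-stromal cells, without overlap between the contractile and the fibroblastic sums. Counting cells on both sides of a limit that met the other limits, 47 lay within 20% of the stromal limit, and in 178 the contractile and the fibroblastic sum differed by at most 20% of their total. Cells just inside the stromal limit had sums of 25.4 to 26.7 and cells just outside it 24.2 to 24.8. After every cell was thinned to 1000 UMIs, 416 of the 497 members that were deep enough (83.7%) met the rule again, and 45 of the others became fibroblastic.

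The name osteoprogenitor was checked against genes of the bone lineage. Runx2 and Sp7, transcription factors needed for osteoblasts, and Alpl, the phosphatase of mineralizing cells, were present but lower in contractile than in fibroblastic cells in each of the 11 cultures. Runx2 averaged 212 CPM in contractile and 738 CPM in fibroblastic cells, and Sp7 averaged 39.6 and 104 CPM. Prrx1, a factor of limb and marrow mesenchyme, was at 505 and 560 CPM and lay on either side. Of the 13 genes of osteoblast differentiation that passed the level filter, 5 were lower in every culture, none was higher and 8 were mixed. Over all 4046 genes that passed, 10.6% were lower and 5.96% higher in every culture. The sum of that whole list, led by Spp1, went the other way. Its median was 12395 CPM in contractile and 9302 CPM in fibroblastic cells, with overlapping ranges. The cells are therefore called by their contractile genes only.

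Markers of other cell types were summed in the same way. The 7 markers of vascular smooth muscle and pericytes summed to a median of 52 CPM against 48.4 in fibroblastic cells, with 390 CPM in WT 2, where 1 cell supplied 64.2% of all UMIs. Myh11, the smooth muscle myosin heavy chain, was at 52.6, 228 and 28.8 CPM in the WT cultures and between 0 and 21.7 CPM in the other 8. The skeletal muscle genes Myh3, Ckm, Myog and Pax7 had no UMI, while that list, led by Acta1, summed to 100.4 CPM in Fgf23cKO 1, 32.5 CPM in WT 2 and 22.2 CPM in Fgf23cKO 2. Of 5 endothelial genes, Cdh5 and Tek had no UMI and the sum reached at most 6.15 CPM. Adipocyte markers, led by Fabp4, had a median sum of 65.1 CPM and reached 491 CPM in Dmp1KO/Fgf23cKO 3, and chondrocyte markers had a median of 52.0 CPM and reached 232 CPM in WT 1. The 12 macrophage markers were all detected, led by Lyz2 at 2223 CPM. In the WT cultures they summed to 2559.8, 4718 and 8101 CPM, in Fgf23cKO to 6122, 2567 and 4677 CPM, in Dmp1KO to 6745 and 4432 CPM and in Dmp1KO/Fgf23cKO to 2488, 1966 and 3662 CPM, against a median of 40486 CPM in non-stromal cells. Of the 530 contractile cells 54 (10.2%) were rich in macrophage RNA, against 151 of 568 fibroblastic cells (26.6%), of which 55 were in the untagged Dmp1KO/Fgf23cKO sample, and the gene comparisons between genotypes below were also run without them.

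The share of contractile cells was examined next, both among all filtered cells and among stromal cells. Among filtered cells of the tagged cultures they made up 2.02, 0.634 and 1.24% in WT, 2.59, 4.64 and 3.80% in Fgf23cKO, 1.29 and 1.81% in Dmp1KO and 3.43, 6.38 and 6.17% in Dmp1KO/Fgf23cKO. Every Fgf23cKO and every Dmp1KO/Fgf23cKO culture lay above the WT cultures, while Dmp1KO overlapped with them. The means were 1.3% ± 0.70 in WT (SD, n = 3), 3.68% ± 1.03 in Fgf23cKO (SD, n = 3), 1.55% ± 0.37 in Dmp1KO (SD, n = 2) and 5.33% ± 1.65 in Dmp1KO/Fgf23cKO (SD, n = 3). Two-sided exact permutation tests gave p = 0.1 for Fgf23cKO and for Dmp1KO/Fgf23cKO against WT, the smallest value that 3 against 3 cultures allow, and an adjusted p of 0.2 over 4 contrasts. In the untagged samples the shares were 3.33% in WT, 8.07% in Fgf23cKO, 12.5% in Dmp1KO and 17.9% in Dmp1KO/Fgf23cKO, and with these counted Fgf23cKO overlapped with WT. As precision of a single culture, the exact 95% binomial interval of WT 2 ran from 0.328 to 1.10% and that of Dmp1KO/Fgf23cKO 2 from 4.74 to 8.37%, which covers counting error only.

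**Figure D1:**
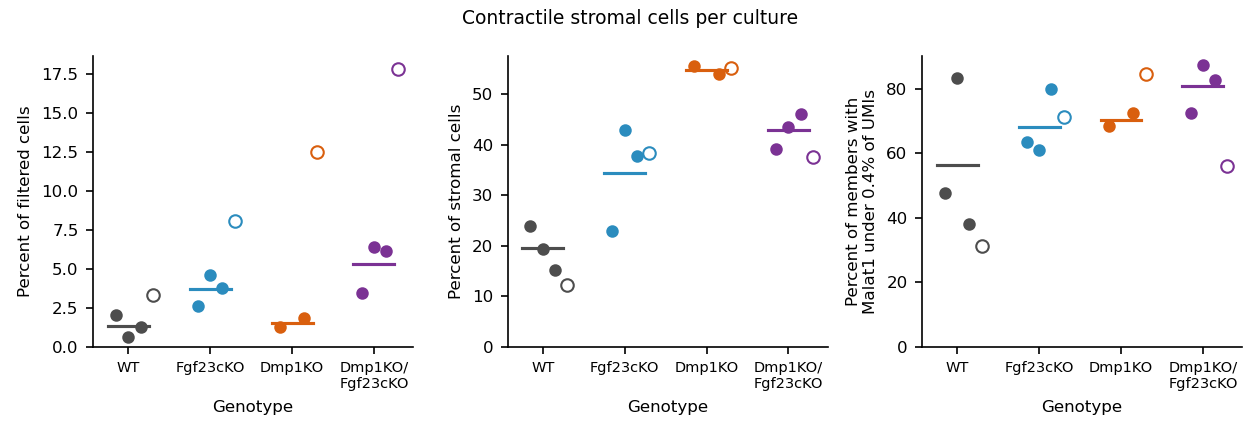
Percent of filtered cells (left) and of stromal cells (middle) that met the contractile rule, and percent of contractile cells with Malat1 under 0.4% of their UMIs (right), by genotype. Filled points are tagged cultures, bars their means and open points the untagged samples. Among stromal cells the 2 Dmp1KO cultures sit at 54.0 and 55.6%, above all WT cultures.

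Among stromal cells the order differed. Contractile cells were 23.9, 19.4 and 15.2% of the stromal cells in WT, 22.9, 42.9 and 37.7% in Fgf23cKO, 55.6 and 54.0% in Dmp1KO and 39.2, 43.6 and 46.0% in Dmp1KO/Fgf23cKO. Both genotypes without Dmp1 lay above every WT culture, and 1 Fgf23cKO culture lay within the WT range. The mean difference from WT was 35.3 percentage points in Dmp1KO (exact permutation p = 0.2, the smallest for 2 against 3), 15 in Fgf23cKO (exact permutation p = 0.2) and 23.5 in Dmp1KO/Fgf23cKO (exact permutation p = 0.1), each with an adjusted p of 0.2. The share in Dmp1KO/Fgf23cKO was 11.8 percentage points below that in Dmp1KO, with means of 43.0 and 54.8% and an exact permutation p of 0.2. No contrast could pass 0.05 with these numbers of cultures. With cells thinned to 1000 UMIs before the rule this last difference was -22.7 percentage points.

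The median contractile cell gave few UMIs. The median contractile cell had 4636 UMIs and 1355 genes, and the median fibroblastic cell 9837 UMIs and 3183 genes. Within a culture the median contractile cell had 0.229 times the UMIs of the median fibroblastic cell, a log2 ratio of -2.13 ± 1.01 (SD, n = 11 cultures), and it was lower in 11 of 11 cultures. A two-sided exact sign-flip permutation test over the 11 cultures gave p = 0.000977, the smallest they allow. With the untagged samples counted, the ratio was 0.356 and 12 of 15 samples were lower, the untagged WT, Dmp1KO and Dmp1KO/Fgf23cKO samples having the reverse order. The medians were 4548 against 13238 UMIs in WT 1 and 7051 against 82778 in Dmp1KO/Fgf23cKO 3, and they lay closest in Fgf23cKO 1, at 52951 against 63447.

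Contractile cells also held a low share of Malat1, a long noncoding RNA that stays in the nucleus. A division at 0.4% Malat1, set after the values had been seen, put 375 of 530 contractile cells (70.8%) below it, against 22.0% of fibroblastic, 27.3% of osteoblast-like and 6.81% of non-stromal cells. The 375 Malat1-low cells had a median of 3415 UMIs, 24.7% ribosomal protein UMIs and 496 genes when thinned to 1000 UMIs. The 155 Malat1-high cells had a median of 36949 UMIs, 12.4% ribosomal protein UMIs and 683 genes after thinning. The Malat1-low share of the contractile cells was 47.6, 83.3 and 38.1% in the WT cultures, 63.6, 61.1 and 80.0% in Fgf23cKO, 68.6 and 72.3% in Dmp1KO and 72.4, 87.5 and 82.8% in Dmp1KO/Fgf23cKO. With only Malat1-high cells kept in both classes, the log2 ratio of contractile to fibroblastic UMIs was 0.36. It was taken over the 4 cultures with enough cells, which were WT 1, WT 3, Dmp1KO 2 and Dmp1KO 3. With all cells of both classes the ratios of these cultures were -1.54, -0.70, -2.14 and -2.30, and the value over all 11 cultures was -2.13. The share among filtered cells, with Malat1-high cells only, differed from WT by 0.524 percentage points in Fgf23cKO and 0.291 in Dmp1KO/Fgf23cKO, in place of 2.38 and 4.03. Among stromal cells, with Malat1-high cells only, the difference from WT was 21.7 percentage points in Dmp1KO, 7.10 in Fgf23cKO and 4.94 in Dmp1KO/Fgf23cKO, and both genotypes with Dmp1-cre overlapped with WT. Dmp1KO/Fgf23cKO then differed from Dmp1KO by -16.8 percentage points. Malat1 was also lower in the non-stromal cells of the mutants, with a median of 2.17 to 2.28% of UMIs in the WT cultures and 1.09 to 1.41% in the others, and 1.35 to 2.32% of non-stromal cells in WT and 4.51 to 8.36% in the others lay below 0.4%. The fixed division thus fell at a different point of the Malat1 levels in mutant and in WT cells. Among filtered cells it was applied to the contractile cells only, and the total kept all filtered cells. Among stromal cells it was applied to every stromal class. How far the general difference in Malat1 enters these shares was not tested.

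**Figure D2:**
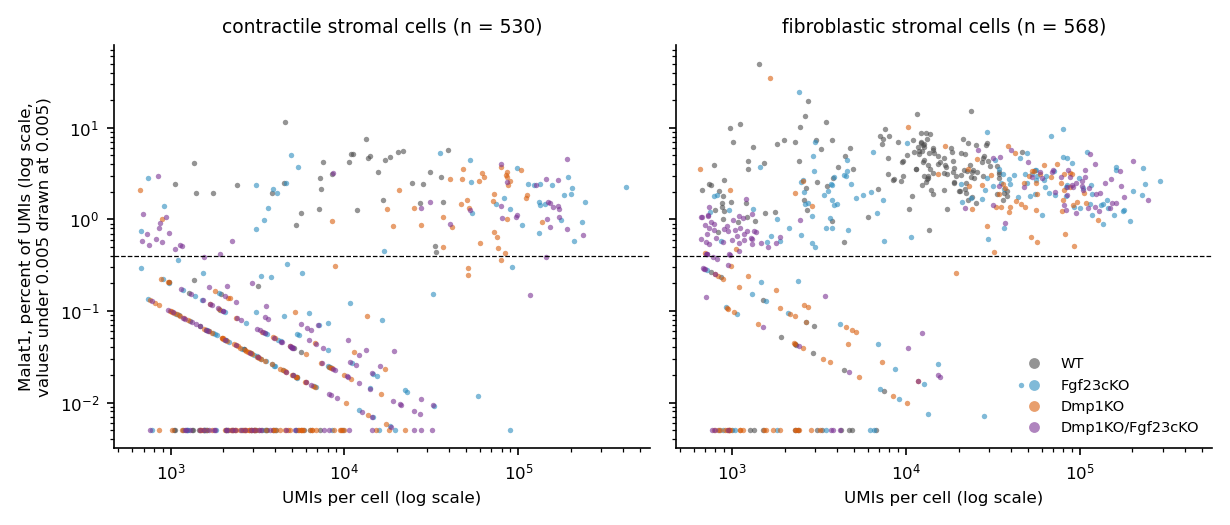
UMIs per cell against the percent of UMIs from Malat1, both on log scales, for contractile (left) and fibroblastic cells (right), with 1 point per cell colored by genotype and a dashed line at 0.4%. Most contractile cells lie below the line and to the left, 375 of 530, while most fibroblastic cells lie above it.

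Gene levels of the Malat1-low and the Malat1-high contractile cells were set side by side within each of the 11 cultures, for 3761 genes with at least 50 CPM in either, as a description without a test. In every culture 272 genes (7.23%) were higher and 833 (22.1%) lower in the Malat1-low cells. The Malat1-low sums of WT were shallow. Malat1-high cells held 88.5, 71.6 and 88.1% of the 228142, 61467 and 243175 contractile UMIs in WT 1, WT 2 and WT 3. A gene of low level can thus have no UMI in a Malat1-low sum and count as lower there. In WT 2 the Malat1-high sum was 2 cells. How far depth enters these counts and ratios was not tested. By construction Malat1 was lower, and Neat1, another nuclear RNA that the division did not use, was lower in 11 of 11 cultures with a median log2 ratio of -3.83 and mean levels of 32.3 against 390 CPM. Higher in 11 of 11 were the G1 cyclins Ccnd1 (median log2 ratio 2.58, 2992 against 586 CPM) and Ccnd2 (1.54), and Grem1, a secreted BMP antagonist (2.50, 793 against 151 CPM).

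Messenger RNAs known to gather in the protrusions of fibroblasts, a list chosen after the data had been seen, had a median log2 ratio of 1.65 in this comparison against -0.64 for all genes, and 3 of 6 were higher in every culture. These were Cyb5r3, a cytochrome b5 reductase, with 1.82, Ddr2, a collagen receptor, with 1.49 and Dynll2, a dynein light chain, with 1.5. Rab13, a small GTPase, had a median of 2.53 and was higher in 9 of 11. Of 23 genes of the TGF-beta, YAP and serum response factor pathways, 11 were lower in every culture and 1, the YAP paralog Wwtr1 (TAZ), was higher. The secreted targets Ccn1 (-4.86), Ccn2 (-4.39) and Thbs1 (-2.85) and the inhibitory Smad7 (-3.61) had low levels in Malat1-low cells, and Ccn2 averaged 90.5 against 1301 CPM. Of 27 actin genes, 6 were lower and 2 higher in all 11 cultures, shares close to those over all genes. Among the 6 were the focal adhesion genes Vcl (-2.51), Lpp (-1.96), Actn1 (-1.46) and Flna (-1.43), and the 2 were Tpm4 (0.81) and Cald1 (0.54).

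**Figure D3:**
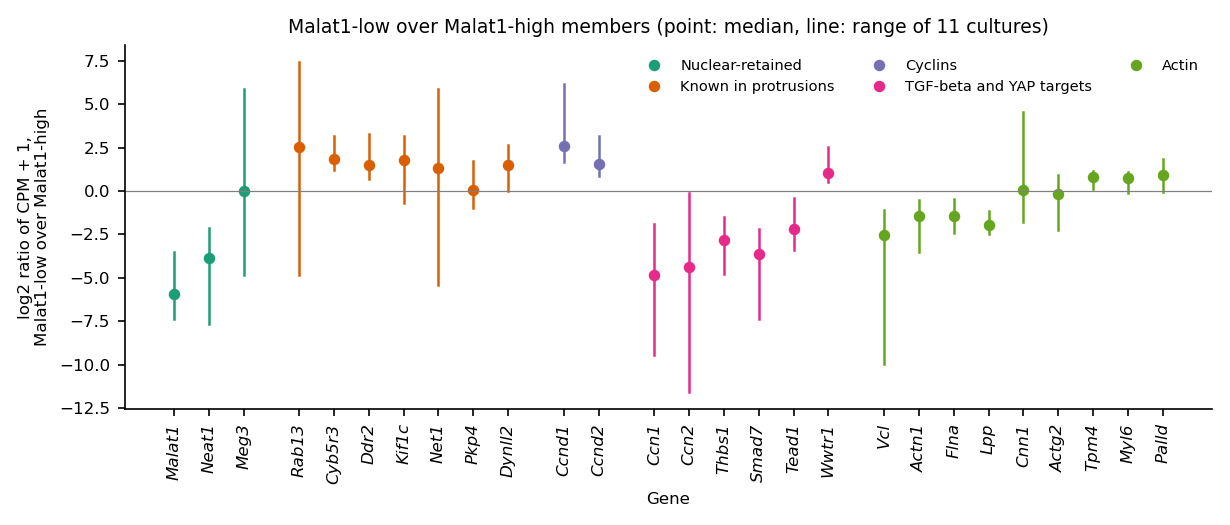
Log2 ratio of CPM + 1 in Malat1-low over Malat1-high contractile cells, with the median as a point and the range over 11 cultures as a line, for genes grouped by role. Malat1 and Neat1 lie below 0 throughout, Ccnd1 and Ccnd2 above 0 throughout, and Ccn1, Thbs1 and Smad7 below.

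Against the fibroblastic cells of the same culture, a contrast that the rule itself made, 241 of 4046 genes (5.96%) were higher and 430 (10.6%) lower in every culture, and no test was made. Fhl1, a LIM domain protein of muscle, led with a median log2 ratio of 3.57 and mean levels of 226 against 23.5 CPM. Grem1 followed with 2.98, Stmn2, a regulator of microtubules, with 2.82 and Actg2, the gamma smooth muscle actin, with 2.79. Actg2 ranged from 222 to 1376 CPM in contractile cells and from 50.9 to 209 CPM in fibroblastic cells. Further genes higher in 11 of 11 cultures were Csrp1 (1.76), Hspb1 (1.75), a small heat shock protein that binds actin, Dmd (1.65), the dystrophin gene, S100a6 (1.49), Tpm4 (1.27), Ccnd1 (1.22) and the galectin Lgals1 (1.13).

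Of 24 genes of the TGF-beta, YAP and serum response factor pathways, none was higher or lower in every culture, with a median of -0.07. Of 27 actin cytoskeleton genes outside the rule that passed the level filter, 11 were higher in every culture and none lower, with a median of 0.85 against -0.15 for all genes. Cald1 (caldesmon, 0.83), Vcl (vinculin, 1.10), Flna (filamin, 0.85) and Crip1 (1.07) were among them. Cnn1 (calponin) and Lmod1 (leiomodin) had larger medians, 2.50 and 2.9, but were not higher in every culture. After thinning to 1000 UMIs, 35% of contractile cells had an Actg2 UMI against 6.97% of fibroblastic and 0.190% of non-stromal cells, and 18.9, 5.33 and 0.281% had a Grem1 UMI. Without thinning, 61.7% of contractile cells had an Actg2 UMI and 37.9% a Grem1 UMI, against 3.32 and 1.61% of non-stromal cells.

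**Figure D4:**
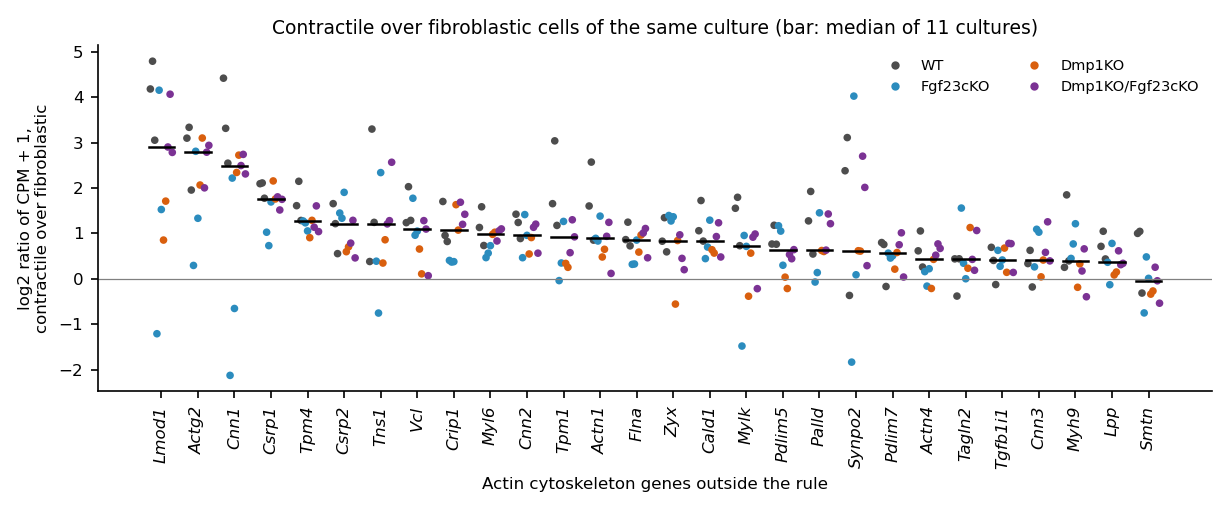
Log2 ratio of CPM + 1 in contractile over fibroblastic cells of the same culture for actin cytoskeleton genes that the rule did not use, with 1 point per culture colored by genotype and a bar at the median of 11 cultures. Lmod1, Actg2 and Cnn1 have the highest medians, 2.9, 2.79 and 2.50, and the points of Cnn1 lie on both sides of 0.

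Of 31 matrix genes, 6 were lower and 2 higher in contractile cells in every culture, with a median of 0.13 against -0.15 for all genes. Among the genes lower in every culture, Mmp13, a collagenase, had a median log2 ratio of -3.31 and averaged 192 against 1022 CPM. Dcn, the proteoglycan decorin, had -3.55, Alpl -2.16, Runx2 -1.79, Tnc (tenascin C) -1.62 and Mmp2 -0.89. Of 13 genes of osteoblast differentiation, 5 were lower in every culture and none higher, with a median of -0.97. Tenm3 (-7.12), a teneurin, Gldn (-5.80) and Sox6 (-3.38) were lower as well. Glial-type genes marked 69 of the fibroblastic and 1 of the contractile cells.

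With Malat1-high members only, 108 of 4104 genes (2.63%) were higher and 157 (3.83%) lower than in fibroblastic cells in every culture. Of the 27 actin genes, 15 were then higher in every culture, with a median of 1.01. Fhl1 (3.64), Actg2 (2.80) and Csrp1 (1.70) stayed higher and Runx2 (-1.76) lower in all 11 cultures. Grem1, with a median of 1.69, was higher in 8 of 11 and Ccnd1, with 0.25, in 8 of 11.

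The osteoblast-like cells were compared in 9 cultures. Of 3764 genes, 737 (19.6%) were higher and 491 (13%) lower in contractile cells in every culture. Grem1 had a median log2 ratio of 6.48, Ankrd1, a stretch-responsive YAP target, 5.84 and Fhl1 4.74, while Ifitm5, a membrane protein of osteoblasts, had -7.33, Smpd3 -6.69 and Phex -6.00. Against non-stromal cells, 1167 of 4422 genes (26.4%) were higher and 1425 (32.2%) lower, and all 12 macrophage markers were lower. Dmp1 had no UMI in the contractile cells of WT and of Dmp1KO, 15 UMIs in those of Fgf23cKO and 3 in those of Dmp1KO/Fgf23cKO. Fgf23 had no UMI in any contractile cell, so neither targeted gene could be compared between genotypes in them. As a check of the labels, Dmp1 had 65 UMIs in the non-stromal cells of WT and 129 in those of Fgf23cKO, and none in those of Dmp1KO and Dmp1KO/Fgf23cKO. This check leaves out the osteoblast-like cells. It does not account for the 3 UMIs in the contractile cells of Dmp1KO/Fgf23cKO, which go against the label and whose source was not tested.

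Gene levels were then compared between genotypes in contractile cells, on UMIs summed per culture with edgeR's quasi-likelihood test and Benjamini-Hochberg adjustment over 9749 genes, and a gene was called at an adjusted p under 0.1. The sums held 61467 to 243175 UMIs in WT and 650823 to 1514135 UMIs in the other genotypes, so that 1 UMI in a WT culture weighs more. The 3 contrasts with WT share the WT cultures, and their values are given side by side. Against WT, 202 genes were higher (2.07%) and 173 lower (1.77%) in Dmp1KO, 215 higher (2.21%) and 278 lower (2.85%) in Fgf23cKO, and 265 higher (2.72%) and 271 lower (2.78%) in Dmp1KO/Fgf23cKO. For Fgf23cKO the balance turned to 232 higher and 189 lower with a filter of 10 counts in all, and to 433 and 377 with the untagged samples. It also turned to 61 and 53 for cells thinned to 1000 UMIs and to 34 and 12 for Malat1-low members. For Dmp1KO it turned to 42 higher and 60 lower for thinned cells and to 37 and 39 for Malat1-high members. For Dmp1KO/Fgf23cKO it turned in several alternatives, for example to 279 and 181 with the filter of 10 counts. Between Dmp1KO/Fgf23cKO and Dmp1KO, 8 genes were higher (0.0821%) and 23 lower (0.236%), a balance that turned for cells thinned to 1000 UMIs, with 26 higher and 2 lower, and for Malat1-low members, with 8 higher and 2 lower. Of the called genes, 77 of those higher and 36 of those lower in Dmp1KO were at lower levels in contractile than in non-stromal cells, as were 53 and 94 in Fgf23cKO and 54 and 102 in Dmp1KO/Fgf23cKO. Without the members rich in macrophage RNA the 4 contrasts gave 329, 429, 463 and 11 genes. Without WT 1 the 3 contrasts with WT gave 154, 114 and 311 genes in the same order. A block for replicate number gave 153, 293, 274 and 30 in the 4 contrasts. In bulk sums, fewer cells of a kind and less RNA per cell cannot be told apart.

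Of 16 tested genes of the cell cycle list, Cdkn2b and Ccnd1 were higher in each of the 3 contrasts with WT. Over all genes 2.21% were higher in Fgf23cKO, 2.07% in Dmp1KO and 2.72% in Dmp1KO/Fgf23cKO. Cdkn2b, an inhibitor of cyclin-dependent kinases, was at 52.6, 48.8 and 53.5 CPM in WT, 330, 405 and 223 CPM in Fgf23cKO, 241 and 146 CPM in Dmp1KO, and 221, 207 and 151 CPM in Dmp1KO/Fgf23cKO. No mutant culture reached down to WT, and the edgeR log2 fold changes were 2.6 ± 0.33 (SE, adjusted p = 0.00406), 1.95 ± 0.35 (adjusted p = 0.0185) and 1.92 ± 0.33 (adjusted p = 0.0121). Ccnd1 was at 522, 504 and 543 CPM in WT, 1104, 1363 and 1154 CPM in Fgf23cKO, 1019 and 1017 CPM in Dmp1KO, and 1436, 2438 and 1101 CPM in Dmp1KO/Fgf23cKO. It passed the edgeR test in all 3 contrasts, with log2 fold changes of 1.2, 1.04 and 1.71 in that order and adjusted p of 0.0282, 0.0735 and 0.00749, and in none of them with Malat1-high members only, where the log2 fold changes were 1.79, 1.17 and 1.34 and the adjusted p 0.146, 0.428 and 0.261, on sums of as few as 2 cells. Ccnb1 and Top2a of the same list were lower in Fgf23cKO, where WT 1 held nearly all of their WT counts and both calls were lost without it. Ccnd1 was no longer called in Dmp1KO when any 1 of the 5 cultures was left out, and Cdkn2b lost its call there without Dmp1KO 2 or Dmp1KO 3. Leaving out a Dmp1KO culture leaves 1, which is assumed to vary like the other groups, so a call lost in this way does not show that the difference is unstable.

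Matrix genes followed in part. Fn1, the gene of fibronectin, was at 1709, 1887 and 2574 CPM in WT, 4220.2, 4249 and 5338 CPM in Fgf23cKO, 3401 and 4406 CPM in Dmp1KO and 3626, 4210.4 and 3038 CPM in Dmp1KO/Fgf23cKO. No WT culture reached the mutant cultures, which overlapped among themselves, and the log2 fold changes from WT were 1.16, 1.01 and 0.87 in that order, with edgeR adjusted p of 0.0146, 0.0312 and 0.0348. Timp2, an inhibitor of metalloproteinases, was at 1788, 1724 and 1604 CPM in WT and 3184, 3188 and 3142 CPM in Fgf23cKO, where it rose by 0.90 ± 0.13 on the log2 scale (SE, edgeR adjusted p = 0.00932). In Dmp1KO it was at 1811 and 1831 CPM and did not pass. Timp1 and Timp3 rose in Fgf23cKO too, with log2 fold changes of 1.57 and 1.14. Of 32 matrix genes 4 were higher and 1, Lum, lower in Fgf23cKO, with a median of -0.31 against 0.03 for all genes. Over all genes 2.21% were higher and 2.85% lower there. In Dmp1KO 2 matrix genes, Fn1 and Fbln2, were higher and none lower, with a median of 0.20. In Dmp1KO/Fgf23cKO 2, Fn1 and Mmp13, were higher and none lower, with a median of 0.42. Lum was at 0, 0 and 131.6 CPM in WT and had no UMI in Fgf23cKO, so its call rests on WT 3.

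**Figure D5:**
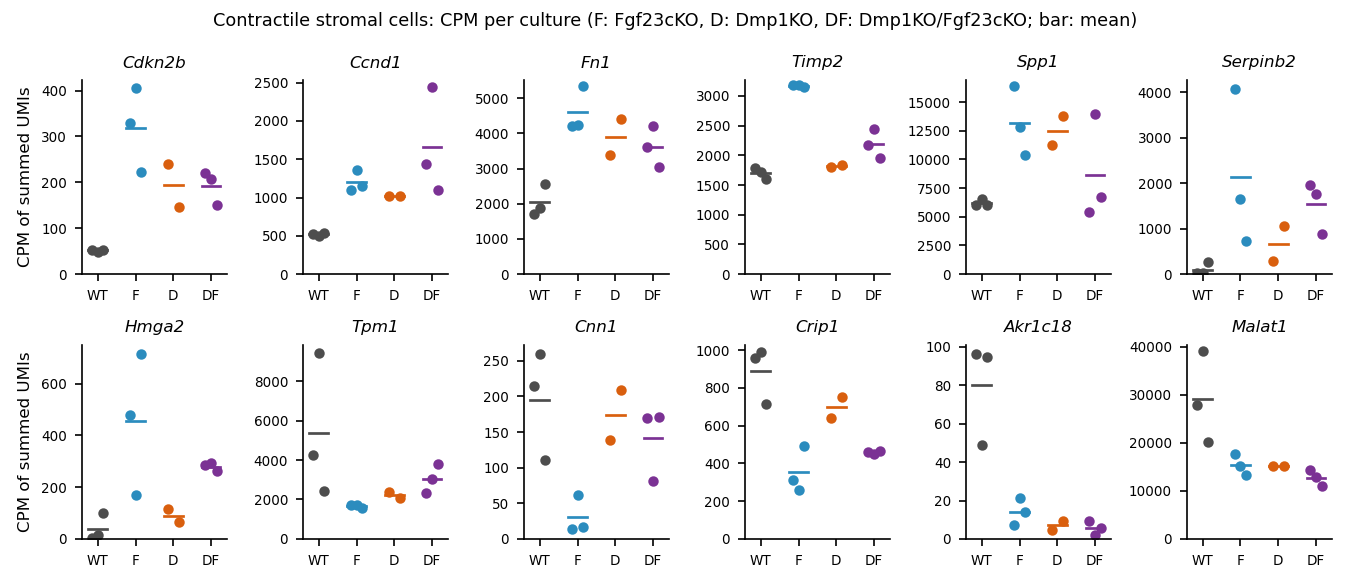
CPM of summed UMIs in contractile cells for 12 genes by genotype, with 1 point per tagged culture and a bar at the mean. Cdkn2b, Ccnd1 and Fn1 are higher in all mutant cultures than in WT, Timp2 stands apart in Fgf23cKO, and Cnn1 and Tpm1 are lowest there.

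Of 15 tested genes of osteoblast differentiation and mineral, 4 were higher in Fgf23cKO, 2 in Dmp1KO and 3 in Dmp1KO/Fgf23cKO, and none was lower, with medians of 0.03, 0.30 and 0.55. Over all genes 2.21, 2.07 and 2.72% were higher in that order. Ank, which exports pyrophosphate, was at 52.6, 48.8 and 271 CPM in WT and between 407 and 877 CPM in the 8 other cultures, with edgeR log2 fold changes of 2.29 in Fgf23cKO (adjusted p = 0.0262), 1.80 in Dmp1KO (adjusted p = 0.0816) and 1.96 in Dmp1KO/Fgf23cKO (adjusted p = 0.0412). Slc20a1 and Slc20a2, sodium-phosphate transporters, rose in Fgf23cKO by 2.0 and 2.06, with adjusted p of 0.0625 and 0.0311. Slc20a2 was also higher in Dmp1KO/Fgf23cKO, with a log2 fold change of 1.75 (edgeR adjusted p = 0.0619). Spp1, the gene of osteopontin, was at 6001, 6524 and 6069.7 CPM in WT and rose by 1.09 in Fgf23cKO and by 1.11 in Dmp1KO, and in Dmp1KO/Fgf23cKO it ranged from 5396 to 13946.5 CPM and overlapped with WT. In the non-stromal cells of Dmp1KO, Spp1 was at 12488 and 10029.7 CPM against 1293 to 1445 CPM in WT, and its part in the Dmp1KO value was not tested. Spp1 lies beside Dmp1 on chromosome 5, and it was the only 1 of 6 tested neighbours of Dmp1 that was called in either genotype. Its call was lost in Dmp1KO with any 1 culture left out and in Fgf23cKO with 5 of 6. Fgfr1, the receptor gene, rose by 1.25 in Fgf23cKO (edgeR adjusted p = 0.0348). It was the only one of 19 tested genes of the FGF list called there, a share near the 5.06% over all genes. None of the list passed in the other 2 contrasts with WT.

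In Fgf23cKO, 7 of 28 tested actin genes were lower than in WT and none higher, with a median log2 fold change of -0.47, against 1 lower in Dmp1KO (Actn4) and 1 in Dmp1KO/Fgf23cKO (Crip1). Over all genes 2.85% were lower in Fgf23cKO, 1.77% in Dmp1KO and 2.78% in Dmp1KO/Fgf23cKO. The sum of the list overlapped, at 22771, 31643 and 13887 CPM in WT and 13886.5, 12895 and 14207 CPM in Fgf23cKO. Cnn1 was at 215, 260.3 and 111 CPM in WT and 13.7, 61.2 and 16.9 CPM in Fgf23cKO (log2 fold change -2.48, edgeR adjusted p = 0.0311). Tpm1 was at 4274, 9452 and 2447 CPM in WT and 1714, 1739 and 1546 CPM in Fgf23cKO (log2 fold change -1.65, edgeR adjusted p = 0.0282). The log2 fold changes were -1.84 for Actg2, -2.03 for Mylk, -3.58 for Synpo2, -0.97 for Palld and -1.33 for Crip1, and Synpo2 and Palld overlapped between the groups. With Malat1-high members only, in sums of at least 2 cells that held 2 cells in WT 2 and 4 each in Fgf23cKO 1 and Fgf23cKO 3, the log2 fold changes were -2.05 for Actg2 (edgeR adjusted p = 0.0551), -3.83 for Synpo2 (0.0809) and -1.53 for Crip1 (0.0436), which passed, and -2.86 for Cnn1 (0.115), -1.67 for Tpm1 (0.11), -2.15 for Mylk (0.11) and -1.17 for Palld (0.124), which did not. The log2 fold change of Actg2 was 0.14 with Malat1-low members only, and that of Palld was 0.49 for cells thinned to 1000 UMIs, neither of which passed. That the genotypes differ in these effects was not tested. Myh11, of the vascular smooth muscle markers, was lower in Fgf23cKO as well, with a log2 fold change of -4.32 (edgeR adjusted p = 0.0614). That list summed to 70.1, 390 and 86.4 CPM in WT and 12.7, 33.6 and 66.1 CPM in Fgf23cKO, and its part in the actin values was not tested. Without WT 1 the calls of Cnn1 and Actg2 were lost, and those of Tpm1 and Crip1 held whichever culture was left out.

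In the other lists the calls against WT are given beside the 3.85% of all genes called in Dmp1KO, 5.06% in Fgf23cKO and 5.5% in Dmp1KO/Fgf23cKO. Of 26 genes of the TGF-beta, YAP and serum response factor pathways, Smad7 was higher and Tgfb3 and Tgfbr3 were lower in Fgf23cKO, Tead1 was lower in Dmp1KO, and Smad7 was higher in Dmp1KO/Fgf23cKO. Of 13 genes of the BMP pathway, the proteinase Bmp1 was higher in Dmp1KO and the activin antagonist Fst lower in Fgf23cKO. Igfbp2, of 7 genes of the IGF system, was lower in Fgf23cKO and in Dmp1KO/Fgf23cKO. Of 18 genes of marrow stromal progenitors, Nes and Cd44 were higher in Dmp1KO/Fgf23cKO and none was called in the other contrasts.

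Among other genes with large differences, Serpinb2, an inhibitor of plasminogen activators, was at 21.9, 16.3 and 259 CPM in WT and at 4071, 1652 and 721 CPM in Fgf23cKO, with a log2 fold change of 4.16 (edgeR adjusted p = 0.0262). It was at 1961, 1764 and 892 CPM in Dmp1KO/Fgf23cKO, with a log2 fold change of 3.74 (edgeR adjusted p = 0.0353). Hmga2, a chromatin protein of growing mesenchyme, rose by 3.24 in Fgf23cKO, and Flrt2, an adhesion protein, rose by 2.78 there and by 2.99 in Dmp1KO/Fgf23cKO. Ptpn13, a phosphatase, was at 4.38, 0 and 4.11 CPM in WT and between 23.2 and 59.3 CPM in every other culture. Akr1c18, a steroid dehydrogenase, was at 96.4, 48.8 and 94.6 CPM in WT and between 2.05 and 21.4 CPM elsewhere, and its log2 fold change was -3.46 in Dmp1KO and -3.79 in Dmp1KO/Fgf23cKO. Hp, haptoglobin, had log2 fold changes of -5.60 in Fgf23cKO and -4.98 in Dmp1KO. Those of Cxcl14, a chemokine, were -3.27 and -3.83, and those of Sfrp1, a Wnt antagonist, -3.73 and -3.11 in the same order. The calls of these 3 genes in Dmp1KO were lost without WT 1, without Dmp1KO 2 and without Dmp1KO 3, and in Fgf23cKO without WT 1. In Dmp1KO/Fgf23cKO, Cxcl14 was at 120.2, 104 and 1238 CPM and did not pass.

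Malat1 was lower than in WT in all 3 contrasts, with edgeR log2 fold changes of -0.84 in Dmp1KO (adjusted p = 0.0655), -0.90 in Fgf23cKO (adjusted p = 0.0282) and -1.13 in Dmp1KO/Fgf23cKO (adjusted p = 0.00994). It was at 27877, 39029 and 20286 CPM in WT and between 10944 and 17703 CPM elsewhere. In the non-stromal cells it was at 22242 to 23638 CPM in WT and at 11092 to 14041 CPM elsewhere. Neat1 was higher than in WT in all 3, by 1.83, 2.09 and 1.59.

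Dmp1KO/Fgf23cKO and Dmp1KO differed in few genes, 21 of the 31 called being at lower levels in contractile than in non-stromal cells. Among the other 10, Styk1, a kinase-like receptor, was at 1.19 and 5.67 CPM in Dmp1KO and 35.7, 41.9 and 34.6 CPM in Dmp1KO/Fgf23cKO (log2 fold change 3.26, edgeR adjusted p = 0.0271). Thsd4, a protein of microfibrils, was at 78.8 and 86 CPM against 265, 196 and 210.2 CPM (1.40, edgeR adjusted p = 0.0271) and Samd4, a regulator of translation, at 118 and 96.4 CPM against 270.1, 276 and 264 CPM (1.3, edgeR adjusted p = 0.0271). Kif26b, a kinesin-like protein, was at 146 and 233 CPM against 44.9, 27.6 and 51.2 CPM (-2.25, edgeR adjusted p = 0.0271), and Col5a3, a fibrillar collagen chain, fell by 2.07. With Malat1-low members only, the log2 fold change of Kif26b turned and did not pass. Bdnf, Cmss1, Wdfy1 and Gm42047 were higher and Gm10076 lower. The calls of Thsd4, Samd4 and Styk1 were lost without either Dmp1KO culture.

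Whether genotype acted differently on contractile than on fibroblastic cells was tested as an interaction of class and genotype over 10844 genes, with the culture as a block. No gene passed in any of the 4 contrasts (0 of 10844, 0%) by edgeR's quasi-likelihood test with Benjamini-Hochberg adjustment, and the genes at an unadjusted p under 0.05 numbered 668 for Dmp1KO, 696 for Fgf23cKO and 538 for Dmp1KO/Fgf23cKO against WT, and 520 between Dmp1KO/Fgf23cKO and Dmp1KO. DESeq2 called 28, 39, 8 and 3. On data simulated for Dmp1KO against WT, this test recovered 24.4% of 4-fold and 4.55% of 2-fold differences, so most differences of these sizes would be missed with these cultures. In the comparison within contractile cells, 58% and 9.82% were recovered.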

How the data were processed

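Single-cell RNA-Seq libraries were examined as UMI counts per gene and cell barcode, which the authors deposited without normalization for 32285 genes and 12 culture tags. The submitters' processing notes name Cell Ranger, Seurat and mm10. Multiplets were removed by tag by the authors, multiplets within a culture may remain, and no doublet caller was run. Tags were kept out of gene totals. Sums of at least 10 contractile or fibroblastic cells per tagged culture were tested with edgeR 4.0.16 in R 4.3.3 (TMM, filterByExpr, quasi-likelihood, Benjamini-Hochberg, adjusted p under 0.1), after the script had been tested on simulated data. Alternatives were DESeq2 1.42.0, RLE size factors, other filters and limits, leaving out single cultures, counting the untagged samples, a block for replicate number, and Malat1 divisions (sums of at least 2 cells) chosen after the data had been seen. CPM are per 1000000 gene UMIs and ratios add 1 CPM. Shares were compared by exact permutation. Genes named are those of fixed lists, plus those with the largest differences whose cultures did not overlap and whose level was not below that of non-stromal cells. The members and lists were chosen with earlier results of these data known. P-values measure the spread between cultures pooled by genotype in 1 reaction. The first Dmp1KO culture was not used here. Some items are not reported here.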

Additional observations from a re-analysis of the deposited data

Results flagged for a closer look

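Of 18 groups of 4 samples checked for a sample far from the others, 1 stood out, and chance flags about 1 in 20 such groups. The median contractile cell of Fgf23cKO 1 had 52951 UMIs, while the other 3 Fgf23cKO samples had 4018 to 10394. This culture held 11 contractile cells, of which 4 were above 0.4% Malat1, and 1 cell supplied 43.9% of their UMIs.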

How the results depend on the processing

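Counts of genes called between genotypes in contractile cells are given in the order Dmp1KO, Fgf23cKO and Dmp1KO/Fgf23cKO against WT and Dmp1KO/Fgf23cKO against Dmp1KO, beside the main counts of 375, 493, 536 and 31. They were 76, 156, 185 and 20 with Malat1-high members only, 41, 46, 120 and 10 with Malat1-low members only, 165, 220 and 234 at an adjusted p under 0.05, 961, 810, 960 and 353 with the untagged samples, and 102, 114, 140 and 28 for cells thinned to 1000 UMIs, where 453 genes were tested and 3 of the 28 were among the main 31. DESeq2 called 87 in the last contrast, and 11 remained there without members rich in macrophage RNA. At least 20 cells per sum, which dropped WT 2, Fgf23cKO 1 and Fgf23cKO 2, gave 232 and 3 in the first and second contrasts, with the single Fgf23cKO sum assumed to vary like the other groups. A stromal limit of 50 gave 238 in the second. Leaving out 1 culture gave 1 to 307, 114 to 430, 188 to 504 and 4 to 35. In the first contrast 15 were called without Dmp1KO 2, 1 without Dmp1KO 3, each of which leaves 1 Dmp1KO culture assumed to vary like the other groups, and 154 without WT 1. In the second there were 114 without WT 1, 246 without Fgf23cKO 1 and 204 without Fgf23cKO 3. In the third, omission of WT 1, WT 3, Dmp1KO/Fgf23cKO 1 and Dmp1KO/Fgf23cKO 2 gave 311, 288, 249 and 188. In the fourth, omission of Dmp1KO 2, Dmp1KO 3 and Dmp1KO/Fgf23cKO 1 gave 5, 4 and 9. The interaction gave 12, 15, 2 and 2 genes with a filter of 10 counts in all, 28, 39, 8 and 3 by DESeq2, 5, 7 and 28 in the last 3 contrasts at 20 cells per sum, 1 for Dmp1KO against WT with the untagged samples, 1 and 3 in the last 2 contrasts at the limit of 50, 1 for Fgf23cKO without glial-type cells, and 0, 0 to 7, 0 and 0 to 1 with 1 culture left out.

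Leaving out 1 culture moved the difference in share among filtered cells from -0.0834 to 0.611 for Dmp1KO, 1.90 to 2.92 for Fgf23cKO, 3.5 to 4.98 for Dmp1KO/Fgf23cKO against WT and 3.25 to 4.73 against Dmp1KO. For Dmp1KO against WT it was -0.0834 without WT 2, -0.0124 without Dmp1KO 3 and -0.192 with Malat1-high members only. With the untagged samples counted the differences were 3.39, 2.97, 6.65 and 3.26, with adjusted exact permutation p of 0.571, 0.114, 0.114 and 0.571. Among stromal cells the ranges were 33.2 to 37.5, 10.8 to 20.8, 21.3 to 25.7 and -13.4 to -9.96 percentage points, and with the untagged samples counted the differences were 37.3, 17.8, 24.0 and -13.3, each with an adjusted exact permutation p of 0.0571. With cells thinned before the rule they were 38.9, 12.2, 16.2 and -22.7. The log2 ratio of UMIs ranged from -2.31 to -1.98. Over 4 cultures of WT and Dmp1KO it was 0.364 with only Malat1-high cells kept in both classes. With Malat1-high members against all fibroblastic cells, 108 genes were higher and 157 lower in every culture. With Malat1-low members only, the log2 fold change turned for Fbln2 (-0.0653) and Malat1 (1.46) in Dmp1KO, for Actg2 (0.14), Malat1 (1.05) and Tgfb3 (0.42) in Fgf23cKO, for Laptm5 (5.77) and Malat1 (1.53) in Dmp1KO/Fgf23cKO against WT, and for Kif26b (0.25) against Dmp1KO. With thinned cells it turned for Palld (0.49) in Fgf23cKO. None of these passed, and the cause was not tested. The values of Malat1 depend on the division, which is made on Malat1 itself, and show nothing about genotype. Over the genes named, 366 of 742 calls held with 1 culture left out, 60 of 130 with Malat1-high members only, 5 of 62 with Malat1-low members only, where 8 turned with those of Malat1 among them, and 133 of 134 with RLE size factors. DESeq2 gave an adjusted p for 94 of the 134, all called, and shared 310, 391, 457 and 31 of all the calls in the 4 contrasts.

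The replicate numbers did not pair the cultures: over 15 same-numbered pairs the correlation of deviations ran from -0.0852 to 0.0838, none above 0.1. With the replicate block the counts were 153, 293, 274 and 30, and the differences in share among filtered cells were 0.611, 2.38, 4.03 and 4.73. It was not run for the interaction, whose culture block holds it. The WT sums, at most 243175 UMIs, limit the depth most.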
